A study of Mus musculus with 10 samples.

Results

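The 7 genes described here encode RNA-binding proteins and ribonucleases that shorten the life of cytokine messages in immune cells: Zfp36, Zfp36l1, Zfp36l2, Zc3h12a, Zc3h12d, Rc3h1 and Rc3h2. They were taken by gene symbol from the 54337 genes over which the reads of the series were summed, and Tnf, Ifng and Il2 were set beside them as cytokine messages. RNA was sequenced from sorted CD8 T cells whose transgenic receptor recognises P1A, an antigen of the P511 mastocytoma, from which the cells were recovered and which itself derives from mast cells. The T cells had been activated for 24 h, transduced with a retroviral vector, transferred 24 h later into tumour-bearing Rag1-/- B10D2 mice and sorted on day 7 after transfer.

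Vectors carrying NFAT5, the Rel-family factor that drives gene expression under hypertonic conditions, gave 3 libraries (NFAT5 1, 5 and 8). Vectors carrying NFAT1 CA-RIT, a constitutively active NFAT1 that does not cooperate with AP-1, gave 4 libraries (NFAT1 CA-RIT 2, 4, 9 and 10). The empty eGFP vector gave 3 control libraries (eGFP control 3, 6 and 7). In all groups the donor cells carried the same receptor, the hosts lacked lymphocytes of their own through Rag1 loss, and the NFAT factors were expressed from a retroviral vector rather than from their own genes. The strain field reads C57BL/6 while the recipients are described as B10D2. Whether the libraries came from separate mice is not stated, so the tests capture no more than the spread among these samples, and that spread may be technical.

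Cytokine messages such as Tnf are short-lived because their 3′ untranslated regions (3′UTRs) carry AU-rich elements and stem-loops that decay factors recognise. Proteins of the ZFP36 family bind AU-rich elements through paired CCCH zinc fingers and recruit the CCR4-NOT deadenylase. Regnases, encoded by the Zc3h12 genes, are endoribonucleases that cut stem-loops, and Roquins, encoded by Rc3h1 and Rc3h2, bind stem-loops and recruit deadenylation and decapping enzymes. In mouse T cells, loss of Regnase-1 or of Roquin releases cytokine and costimulator messages, and ZFP36L2 is known for holding Ifng messages silent in memory CD8 T cells.

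The AU-rich nonamer bound by ZFP36 proteins is TTATTTATT in DNA letters, and its heptamer core is TATTTAT. Both were searched on the transcript strand, matches being allowed to overlap. For each gene the coding transcript with the longest annotated 3′UTR was used. Every nonamer holds a heptamer. Of 20815 genes with an annotated 3′UTR, 7.73% held a nonamer and 27.8% a heptamer. Of the 7 decay factors, 5 held 1 nonamer each, and Zc3h12a and Zc3h12d held neither motif. Tnf held 5 nonamers, Il2 held 1, and Ifng held none but 4 heptamers. The sites below show these letters in the 5 decay factors that held a nonamer and in the cytokine messages. Each is 30 bases of GENCODE M21 transcript sequence (GRCm38), 5′ to 3′ on the transcript strand, with the nonamer in capitals (for Ifng the heptamer), and in the Tnf window 4 overlapping nonamers are capitalised.
Zfp36, chr7:28376950-28376979, minus strand: tatgacgactTTATTTATTgtattaagatt
Zfp36l1, chr12:80108166-80108195, minus strand: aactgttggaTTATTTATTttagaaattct
Zfp36l2, chr17:84184913-84184942, minus strand: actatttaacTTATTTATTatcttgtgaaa
Rc3h1, chr1:160970043-160970072, plus strand: actttactcaTTATTTATTgagatgaggag
Rc3h2, chr2:37373286-37373315, minus strand: caaagacattTTATTTATTttactctgtaa
Tnf, chr17:35199677-35199706, minus strand: tatttaTTATTTATTTATTATTTATTTATT
Ifng, chr10:118445323-118445352, plus strand: aaatctaaaccTATTTATtaatatttaaaa
Il2, chr3:37120897-37120926, minus strand: ttatctgaaaTTATTTATTatattgaattg
Among genes whose 3′UTR was within 20% of the same length, 4.02% held a nonamer for Zfp36, 10.1% for Zfp36l1, 10.1% for Zfp36l2, 27.6% for Rc3h1, 22.0% for Rc3h2 and 3.99% for Tnf. A match is a description of the letters and not a measured site of binding.

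Of the 10 libraries, 9 held between 18813321 and 36626336 estimated reads, and eGFP control 7 held 51112 reads, spread over 798 genes. A gene with 3 reads in eGFP control 7 already stood at 58.7 CPM (reads scaled to the library's total over all summed genes), so this library cannot show most members. NFAT1 CA-RIT 10 was deep but had Cd8a, a chain of the CD8 coreceptor, at 0.0308 CPM, against 582 to 988 CPM in the other deep libraries. Its macrophage and monocyte markers summed to 5682 CPM, its dendritic cell markers to 5234 CPM and its mast cell and P511 markers to 5100 CPM. In the other deep libraries these sums reached at most 1994, 1787 and 268 CPM. Results therefore rest on the other 8 libraries, 3 with NFAT5, 3 with NFAT1 CA-RIT and 2 with eGFP, and values from all 10 are given where they differ. Nfat5 stood at 48.0 to 87.0 CPM with the NFAT5 vector and at 3.01 to 10.7 CPM with NFAT1 CA-RIT, against 1.12 and 6.88 CPM with eGFP. Nfatc2, which encodes NFAT1, stood at 30.0 to 88.8 CPM with NFAT1 CA-RIT, against 4.00 and 47.3 CPM with eGFP, ranges that overlapped, so this check did not separate the groups. In bulk RNA, fewer cells of a type and less RNA per cell cannot be told apart.

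Per unit of length, on the TPM scale (reads scaled by transcript length and library total), the ZFP36 family made up most of the decay-factor message. Over 8 libraries the mean level was 91.7 TPM for Zfp36l2, 76.3 TPM for Zfp36, 18.1 TPM for Zfp36l1, 6.55 TPM for Zc3h12a, 5.64 TPM for Zc3h12d, 1.84 TPM for Rc3h1 and 0.646 TPM for Rc3h2. Ifng averaged 457 TPM and Tnf 48.8 TPM on the same scale. The Ifng level includes a retained-intron transcript of 378 bases, which in eGFP control 3 held 216 of 813 TPM from 6.24% of the gene's reads. Of the neighbours in this order, Zfp36 stood above Zfp36l1, Zfp36l1 above Zc3h12a and Rc3h1 above Rc3h2 in 8 of 8 libraries, and Zc3h12d above Rc3h1 in 7 of 8. Zfp36l2 stood above Zfp36 in 6 of 8 libraries and Zc3h12a above Zc3h12d in 4 of 8, and these neighbours changed places between groups. The order of Zc3h12a and Zc3h12d depends on a short retained-intron transcript of Zc3h12a. The coding transcript of Zc3h12a alone stood below Zc3h12d in NFAT5 1, at 6.51 against 8.15 TPM.

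**Figure D1:**
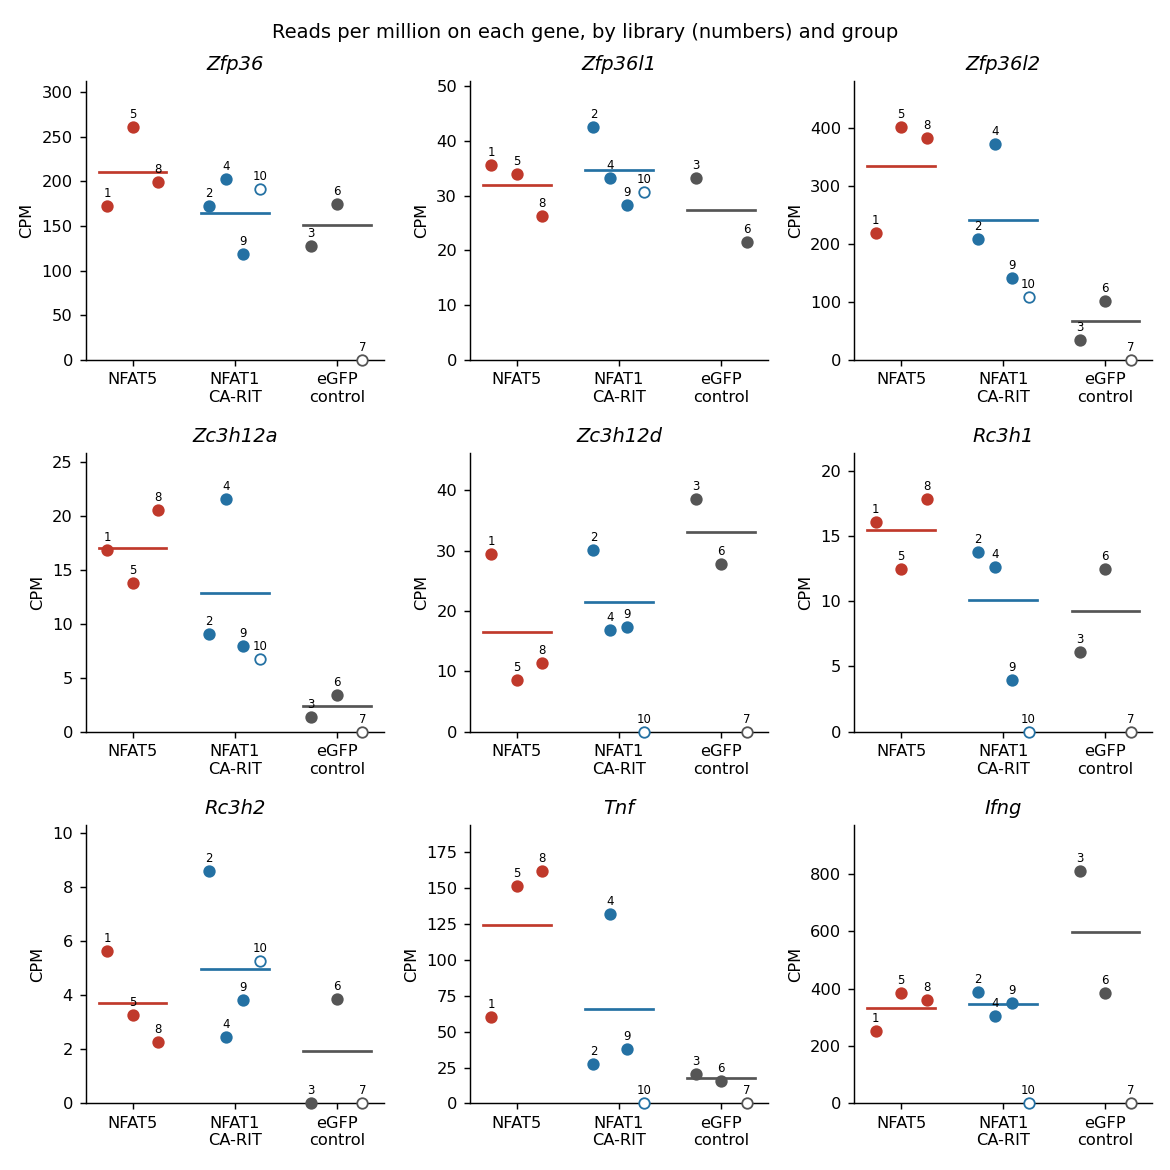
Level in CPM (linear axes from 0) of the 7 decay factors, Tnf and Ifng in each library, grouped as NFAT5, NFAT1 CA-RIT and eGFP control, with library numbers beside the points. Lines are means over the 8 libraries used, open circles are the 2 libraries left out (eGFP control 7, at 3359 CPM, is not drawn for Zfp36l1), and the filled points of both NFAT groups lie above both eGFP points for Zfp36l2, Zc3h12a and Tnf.

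Zfp36l2, Zc3h12a and Tnf were higher in every NFAT5 and NFAT1 CA-RIT library than in either eGFP library, by 1.75 to 2.74 on the log2 scale over the groups. The other 5 decay factors overlapped between groups, and Zc3h12d had the opposite sign. No gene of the series passed an adjusted p of 0.05 in edgeR's quasi-likelihood test in any of the 3 comparisons. DESeq2 on the same libraries called Zc3h12a and Zfp36l2 in the comparison of NFAT5 with eGFP, and Zc3h12a in that of NFAT1 CA-RIT with eGFP. Both comparisons use the same 2 eGFP libraries, so their agreement is not independent.

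Against eGFP, 2 of the 7 decay factors were higher without overlap with NFAT5, beside 14.2% of the 14473 genes tested, and none was lower without overlap, beside 8.15%. In edgeR, 0% of genes passed at an adjusted p of 0.05, and 1051 genes (7.26%) had an unadjusted p under 0.05, with 3.25% of genes on the higher side, where Zfp36l2 and Zc3h12a fell. DESeq2 called 131 genes (0.892%), of which 0.66% of genes tested were higher, and limma voom called 0. For NFAT1 CA-RIT against eGFP the same 2 decay factors were higher without overlap, again beside 14.2% of genes, and none was lower, beside 6.67%. There edgeR called 0%, 932 genes (6.44%) had an unadjusted p under 0.05, 3.28% of genes on the higher side, DESeq2 called 116 genes (0.834%, with 0.647% higher), and limma voom called 0.

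Zfp36 encodes tristetraprolin, the founding member of its family and itself an immediate early gene. Zfp36 (ENSMUSG00000044786, chromosome 7, 28376784 to 28380253, minus strand, GRCm38) had 173, 260.4 and 199.8 CPM in NFAT5 libraries 1, 5 and 8, 173, 203 and 119 CPM in NFAT1 CA-RIT libraries 2, 4 and 9, and 128 and 174 CPM in eGFP libraries 3 and 6. The groups overlapped, and NFAT5 5 was highest. NFAT5 differed from eGFP by a log2 fold change of 0.39 ± 0.30 (SE; edgeR, adjusted p = 0.700). For NFAT1 CA-RIT against eGFP it was 0.01 ± 0.30 (edgeR, adjusted p = 0.993), and -0.0432 with upper-quartile scaling. Its reads were divided nearly evenly between its 2 coding transcripts, at medians of 49.2% and 50.8%.

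Zfp36l1, which shares the zinc finger domain and acts redundantly with Zfp36l2 in mouse lymphocyte development, varied least of the 7. Zfp36l1 (ENSMUSG00000021127, chromosome 12, 80107754 to 80113013, minus strand) had 35.5, 33.9 and 26.2 CPM with NFAT5, 42.4, 33.2 and 28.2 CPM with NFAT1 CA-RIT, and 33.2 and 21.5 CPM with eGFP. These levels spanned 1.97-fold over the 8 libraries and overlapped. Log2 fold changes were 0.10 ± 0.34 for NFAT5 and 0.20 ± 0.34 for NFAT1 CA-RIT against eGFP (edgeR, adjusted p = 0.942 and 0.868). Over all 10 libraries these values became -7.67 and -7.65, with 172 of the reads of eGFP control 7 on Zfp36l1.

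Zfp36l2 was the member of its family that separated the groups. Zfp36l2 (ENSMUSG00000045817, chromosome 17, 84183931 to 84187947, minus strand) had 219, 401 and 383 CPM in NFAT5 libraries 1, 5 and 8, 209, 373 and 141 CPM in NFAT1 CA-RIT libraries 2, 4 and 9, and 33.5 and 102 CPM in eGFP libraries 3 and 6. All 6 libraries with an NFAT vector lay above both eGFP libraries, and NFAT1 CA-RIT 9 was nearest to them. The group means were 335 ± 100.3 CPM (SD, n = 3), 241 ± 119 CPM (SD, n = 3) and 67.6 ± 48.2 CPM (SD, n = 2).

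The log2 fold change of Zfp36l2 was 2.24 ± 0.59 for NFAT5 against eGFP (edgeR, adjusted p = 0.654; DESeq2, adjusted p = 0.0287) and 1.75 ± 0.57 for NFAT1 CA-RIT against eGFP (edgeR, adjusted p = 0.679; DESeq2, adjusted p = 0.174). Unadjusted edgeR p-values were 0.00484 and 0.0152. Leaving out 1 library at a time moved the NFAT5 value between 1.70 (without eGFP control 3) and 3.16 (without eGFP control 6), and the NFAT1 CA-RIT value between 1.21 and 2.67 in the same 2 fits. Its DESeq2 adjusted p for NFAT5 was 0.220, 0.248 and 0.217 without eGFP control 3, NFAT5 5 and NFAT5 8. Without eGFP control 6, edgeR gave adjusted p = 0.0112 and 0.0192 for the 2 vectors, a fit in which the lone eGFP library was assumed to vary like the other groups. That fit called 3294 and 3410 genes.

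Within the family, measured per length, the leading message differed between the groups. The ratio of Zfp36l2 to Zfp36 TPM was 1.16, 1.39 and 1.75 with NFAT5 and 1.15, 1.68 and 1.07 with NFAT1 CA-RIT, against 0.254 and 0.539 with eGFP. Zfp36l2 was the more abundant of the pair in the 6 NFAT libraries and Zfp36 in both eGFP libraries. Zfp36l2 made up 54.1 ± 6.47% of family TPM with NFAT5 and 49.6 ± 7.40% with NFAT1 CA-RIT (SD, n = 3 each), against 23.6 ± 11.3% with eGFP (SD, n = 2). The long non-coding gene AC132455.1 overlaps Zfp36l2 on the opposite strand and averaged 2.09 TPM, against 91.7 TPM for Zfp36l2, and whether the counting used strand is not given in the sources used here.

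Zc3h12a encodes Regnase-1, a ribonuclease that the protease MALT1 cleaves after T cell receptor stimulation and that restrains antitumour CD8 T cells in mice. Zc3h12a (ENSMUSG00000042677, chromosome 4, 125118423 to 125127840, minus strand) had 16.9, 13.8 and 20.6 CPM in NFAT5 libraries 1, 5 and 8, 9.09, 21.6 and 7.98 CPM in NFAT1 CA-RIT libraries 2, 4 and 9, and 1.40 and 3.42 CPM in eGFP libraries 3 and 6. All 6 libraries with an NFAT vector again lay above both eGFP libraries, which held 51 and 85 reads on the gene. The group means were 17.1 ± 3.41, 12.9 ± 7.54 and 2.41 ± 1.43 CPM (SD, n = 3, 3 and 2).

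The log2 fold change of Zc3h12a was 2.74 ± 0.68 for NFAT5 against eGFP (edgeR, adjusted p = 0.654; DESeq2, adjusted p = 0.00424) and 2.33 ± 0.67 for NFAT1 CA-RIT against eGFP (edgeR, adjusted p = 0.679; DESeq2, adjusted p = 0.0297). Unadjusted edgeR p-values were 0.00362 and 0.00789. Leaving out 1 library at a time kept the NFAT5 value between 2.28 and 3.44 and the NFAT1 CA-RIT value between 1.70 (without NFAT1 CA-RIT 4) and 3.03. The upper values came without eGFP control 6, where the median of all genes tested rose as given for Zfp36l2. DESeq2 lost the NFAT5 call without eGFP control 3 (adjusted p = 0.104) and without NFAT5 8 (0.0841). It lost the NFAT1 CA-RIT call in 5 of 8 such fits, with adjusted p = 0.463 without eGFP control 3, 0.275 without NFAT1 CA-RIT 4 and 0.0708 to 0.0780 without NFAT5 1, 5 or 8. In the fits without eGFP control 6, edgeR gave adjusted p = 0.0162 and 0.0239.

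The annotation lists 2 Zc3h12a transcripts, a coding one of 2755 bases and a retained-intron one of 660 bases. The retained-intron transcript took 8.60%, 7.25% and 13.4% of the gene's reads with NFAT5 and 7.01%, 7.68% and 6.79% with NFAT1 CA-RIT, against 27.7% and 16.0% with eGFP. Its share was highest where the gene was lowest, in eGFP control 3 (95% Wilson interval 17.1% to 40.9%), and the interval of eGFP control 6 (9.16% to 24.4%) overlapped those of all 6 NFAT libraries. Intervals cover counting error only. With average transcript lengths as an offset, the 2 log2 fold changes of Zc3h12a were 2.40 and 1.88.

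Zc3h12d encodes Regnase-4, a relative of Regnase-1 described in lymphocytes and macrophages, and was the only member with a lower mean in both NFAT groups. Zc3h12d (ENSMUSG00000039981, chromosome 10, 7832470 to 7870396, plus strand) had 29.5, 8.53 and 11.4 CPM with NFAT5, 30.1, 16.9 and 17.4 CPM with NFAT1 CA-RIT, and 38.5 and 27.8 CPM with eGFP. NFAT5 1 and NFAT1 CA-RIT 2 lay above eGFP control 6, so both comparisons overlapped. Its log2 fold change was -1.14 ± 0.55 for NFAT5 (edgeR, adjusted p = 0.654) and -0.77 ± 0.55 for NFAT1 CA-RIT (edgeR, adjusted p = 0.696) against eGFP. Without NFAT5 1, which moved the NFAT5 value to -1.82, DESeq2 gave an adjusted p of 0.0173.

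The balance between the Regnase messages, per length, set both eGFP libraries below all 6 NFAT libraries, while the NFAT5 and NFAT1 CA-RIT libraries overlapped. The ratio of Zc3h12a to Zc3h12d TPM was 1.21, 3.29 and 4.42 with NFAT5 and 0.598, 2.63 and 0.930 with NFAT1 CA-RIT, against 0.123 and 0.318 with eGFP. Zc3h12a led in 4 of the 8 libraries, all 3 with NFAT5 and NFAT1 CA-RIT 4. It made up 71.0 ± 14.3% of the pair's TPM with NFAT5 and 52.7 ± 17.9% with NFAT1 CA-RIT (SD, n = 3 each), against 17.5 ± 9.34% with eGFP (SD, n = 2). These TPM include the retained-intron transcript, which held 5.46 of the 11.9 TPM of Zc3h12a in NFAT5 8. With the coding transcript alone, Zc3h12a stood below Zc3h12d in NFAT5 1, at 6.51 against 8.15 TPM. It still led in NFAT5 5, NFAT5 8 and NFAT1 CA-RIT 4.

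**Figure D2:**
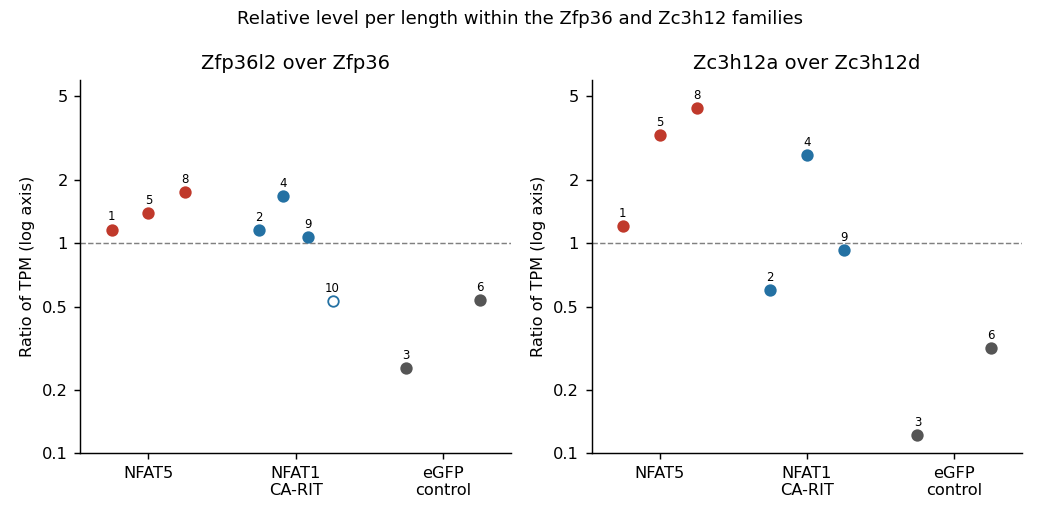
Ratio of TPM of Zfp36l2 to Zfp36 and of Zc3h12a to Zc3h12d in each library (log axes, dashed line at a ratio of 1), grouped as NFAT5, NFAT1 CA-RIT and eGFP control with library numbers. The eGFP points, 0.254 and 0.539 in the left panel and 0.123 and 0.318 in the right, lie below every filled NFAT point; the open circle is NFAT1 CA-RIT 10, left out of the tests, and ratios with a gene at 0 are not drawn.

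Rc3h1 encodes Roquin-1, in which the mouse sanroque mutation causes a lupus-like disease. Rc3h1 (ENSMUSG00000040423, chromosome 1, 160906418 to 160974978, plus strand) had 16.1, 12.5 and 17.8 CPM with NFAT5, 13.8, 12.6 and 3.97 CPM with NFAT1 CA-RIT, and 6.08 and 12.5 CPM with eGFP. The groups overlapped, narrowly for NFAT5, whose lowest library was level with eGFP control 6. Roquin-1 message had a log2 fold change of 0.65 ± 0.62 for NFAT5 (edgeR, adjusted p = 0.749) and 0.02 ± 0.60 for NFAT1 CA-RIT (edgeR, adjusted p = 0.996; -0.0290 with upper-quartile scaling) against eGFP. Its long coding transcript, of 11006 bases, took between 36.4% and 100% of its reads.

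Rc3h2 encodes Roquin-2, which acts redundantly with Roquin-1 in mouse T cells. Rc3h2 (ENSMUSG00000075376, chromosome 2, 37370069 to 37422903, minus strand) had 5.65, 3.25 and 2.27 CPM with NFAT5, 8.58, 2.45 and 3.83 CPM with NFAT1 CA-RIT, and 0 and 3.84 CPM with eGFP. In eGFP control 3 it had 0 reads, which at 3 reads allows a level of up to 0.0821 CPM, and in eGFP control 6 it had 95 reads, within the range of both other groups. Log2 fold changes were 0.90 ± 1.60 for NFAT5 and 1.29 ± 1.63 for NFAT1 CA-RIT against eGFP (edgeR, adjusted p = 0.866 and 0.816). Without eGFP control 3 these became -0.08 and 0.30, and without eGFP control 6 edgeR gave adjusted p = 0.00728 and 0.00624 for a fold against 0 reads.

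**Figure D3:**
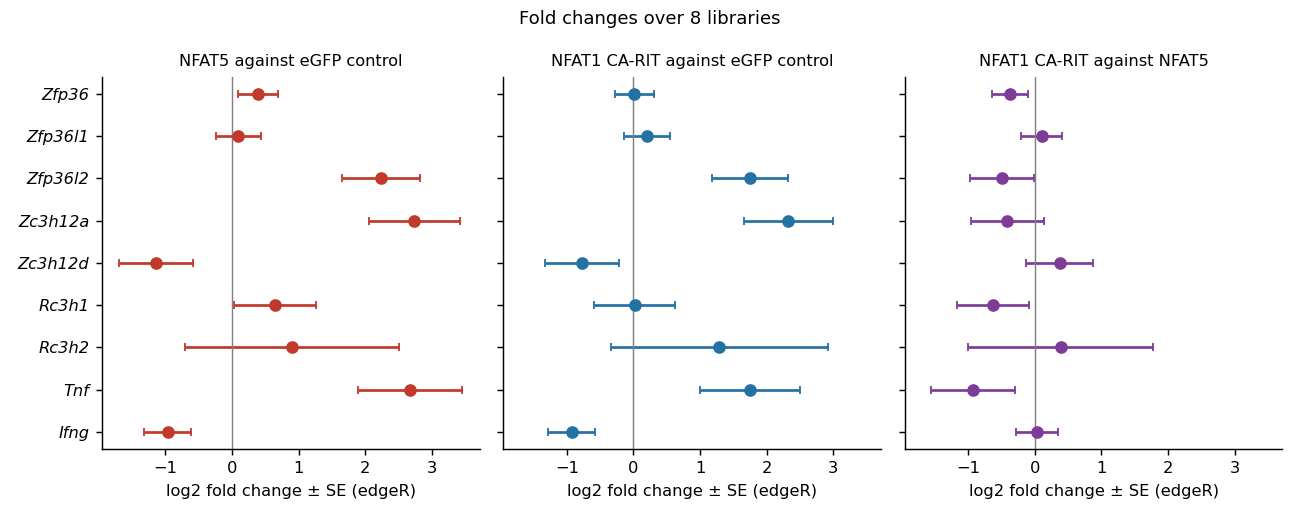
Log2 fold changes with standard errors derived from the test statistic (edgeR, 8 libraries) of the 7 decay factors, Tnf and Ifng in the comparisons of NFAT5 and of NFAT1 CA-RIT with eGFP and of NFAT1 CA-RIT with NFAT5. Zfp36l2, Zc3h12a and Tnf lie at 1.75 to 2.74 in the panels against eGFP, Zc3h12d and Ifng lie below 0 there, and no point of any panel passed an adjusted p of 0.05 in edgeR.

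Tnf, a classical target of tristetraprolin in mouse, stood highest in the same 3 libraries as Zfp36l2. Tnf had 60.2, 151 and 162 CPM in NFAT5 libraries 1, 5 and 8, 27.5, 132 and 37.7 CPM in NFAT1 CA-RIT libraries 2, 4 and 9, and 20.7 and 15.4 CPM in eGFP libraries 3 and 6. NFAT5 5, NFAT5 8 and NFAT1 CA-RIT 4 were the 3 highest libraries for Tnf and for Zfp36l2, and the eGFP libraries were the lowest for Tnf, Zfp36l2 and Zc3h12a. The log2 fold change of Tnf was 2.68 ± 0.78 for NFAT5 (edgeR, adjusted p = 0.654; DESeq2, adjusted p = 0.0446) and 1.75 ± 0.75 for NFAT1 CA-RIT (edgeR, adjusted p = 0.679; DESeq2, adjusted p = 0.356) against eGFP. DESeq2 lost the NFAT5 call without NFAT5 5, NFAT5 8 or eGFP control 3 (adjusted p = 0.288, 0.298 and 0.0637), and without NFAT1 CA-RIT 4 the NFAT1 CA-RIT value was 0.71.

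Ifng, which in mouse memory CD8 T cells is bound by ZFP36L2, was not highest where Zfp36l2 was. Ifng had 254, 387 and 362 CPM with NFAT5, 388, 306 and 349 CPM with NFAT1 CA-RIT, and 811 and 384 CPM with eGFP. Only eGFP control 3 stood apart, since eGFP control 6 lay within the range of the NFAT libraries. Its log2 fold change was -0.96 ± 0.35 for NFAT5 and -0.93 ± 0.35 for NFAT1 CA-RIT against eGFP (edgeR, adjusted p = 0.654 and 0.679), and -0.22 and -0.19 without eGFP control 3. With eGFP control 3 as the lone eGFP library the values were -1.44 and -1.40 (edgeR, adjusted p = 0.00743 and 0.00825). Il2 had at most 19 reads in a library (0.679 CPM, NFAT1 CA-RIT 9) and 0 reads in 3 of the 8 libraries, and it did not pass the low-count filter in edgeR. Without that filter edgeR gave adjusted p = 0.807 and 0.756 for NFAT5 and NFAT1 CA-RIT against eGFP, where the eGFP libraries held 1 and 0 reads.

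**Figure D4:**
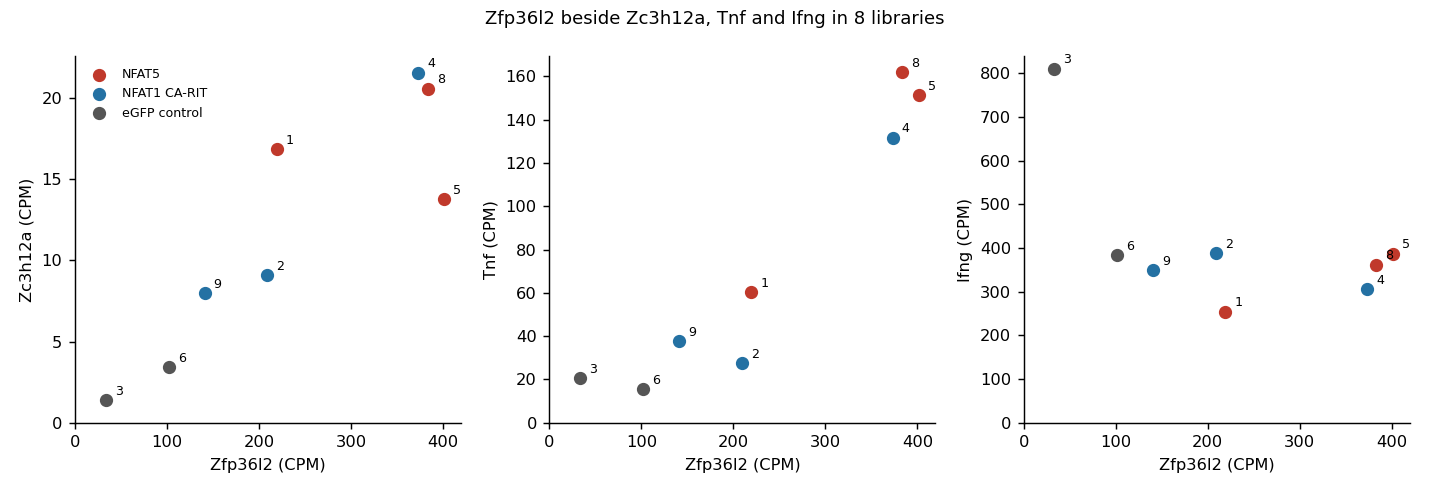
CPM of Zfp36l2 (horizontal axes) against CPM of Zc3h12a, Tnf and Ifng (vertical axes) in the 8 libraries, coloured by NFAT5, NFAT1 CA-RIT and eGFP control and numbered. The eGFP libraries sit at the low end for Zc3h12a and Tnf, NFAT5 5, NFAT5 8 and NFAT1 CA-RIT 4 at the high end for Zfp36l2 and Tnf, and eGFP control 3 stands alone at 811 CPM of Ifng.

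Some cell and library features moved with these values. eGFP control 3 was lowest for Zfp36l2 and Zc3h12a and highest for Ifng. In it the antigen presentation genes Cd74 and H2-Ab1 stood at 565 and 454 CPM. In the other 7 of the 8 libraries they reached at most 90.6 and 90.3 CPM. eGFP control 3 also held the most reads, 36626336, but on only 13186 genes, against 15276 to 17255 genes in the other 7. The 14 T cell markers summed to 27986 to 29597 CPM with NFAT5 and 29581 to 35301 CPM with NFAT1 CA-RIT, against 34646 and 43085 CPM with eGFP. The 16 macrophage and monocyte markers summed to 1010 to 1363 CPM with NFAT5 and 621 to 1994 CPM with NFAT1 CA-RIT, against 737 and 1209 CPM with eGFP, with 0 to 5, 0 to 3 and 3 to 6 of the 16 at 0. Of these, Lyz2 stood at 12.2 to 67.4 CPM in the 6 NFAT libraries and Lyz2 and Fcgr1 had 0 reads in both eGFP libraries. Other markers of the list went the other way. Chil3 and C1qc were highest in eGFP control 3, at 73.9 and 13.5 CPM, and stood at 0 and 0.283 CPM in eGFP control 6. Among the 16, 7 were higher and 9 lower for NFAT5 against eGFP, and 10 and 6 for NFAT1 CA-RIT. The 14 mast cell and P511 markers summed to 149.7 to 268 CPM with NFAT5 and 79.2 to 219.9 CPM with NFAT1 CA-RIT, against 56.6 and 248 CPM with eGFP, and 8 neutrophil markers to at most 4.54 CPM in a library. The 11 dendritic cell markers summed to 252 to 498 CPM with NFAT5 and 288 to 409 CPM with NFAT1 CA-RIT, against 1787 and 289 CPM in eGFP controls 3 and 6, and the 11 B, NK and CD4 T cell markers to 263 to 458, 230.4 to 527, and 208 and 382 CPM in the same order of groups.

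The 26 immediate early and dissociation stress genes, a class like Zfp36 itself, which was not counted in it, summed to 10695 to 13507 CPM with NFAT5 and 9170 to 17547 CPM with NFAT1 CA-RIT, against 8195 and 20124 CPM with eGFP. The eGFP libraries held both the lowest and the highest of these sums, to which heat shock genes added much. Hspa1a and Hspa1b alone stood at 3625 and 5542 CPM in eGFP control 6. Of the 8 libraries, Egr1, Egr2, Nr4a1, Ier2 and Junb were highest in NFAT5 5, NFAT5 8 and NFAT1 CA-RIT 4, as were Zfp36l2 and Tnf. Not all 26 genes did so, since Fos and Jun were highest in eGFP control 6, at 912 and 789 CPM. Among the 26 genes, 9 were higher and 17 lower for NFAT5 against eGFP, with a median log2 fold change of -0.29, and only Egr1 (1.41 ± 0.50), Nr4a1 (1.14 ± 0.46) and Klf6 (-0.61 ± 0.27) had an unadjusted edgeR p under 0.05. For NFAT1 CA-RIT the split was again 9 and 17, the median was -0.46, and no gene had a p under 0.05. With 1 library left out, the median ranged from -0.35 to 0.07 for NFAT5 and from -0.46 to -0.01 for NFAT1 CA-RIT. The part of other cells, depth or dissociation in the values of the decay factors was not tested.

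**Figure D5:**
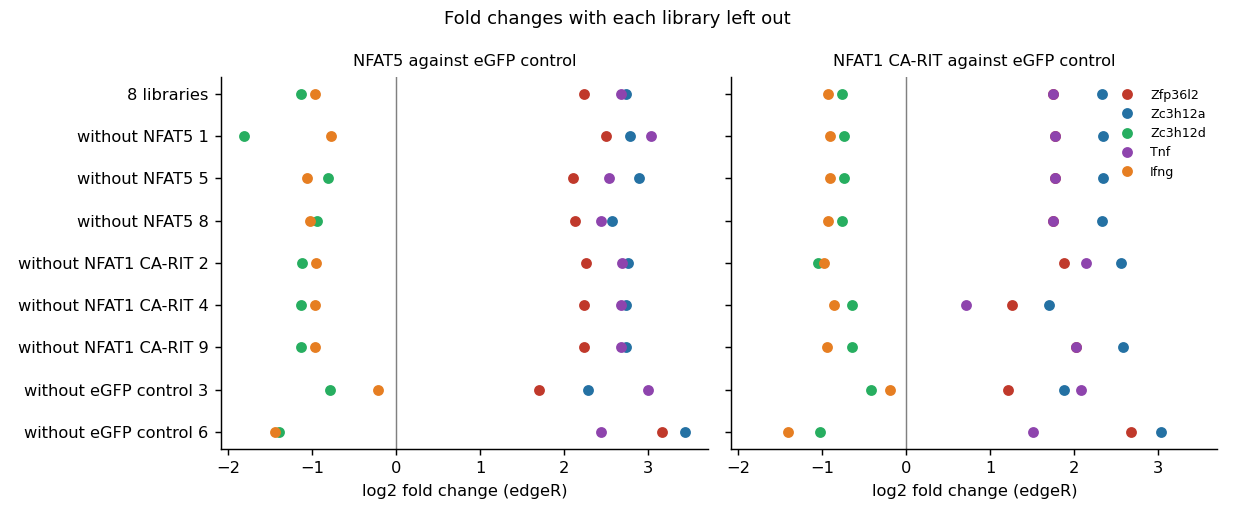
Log2 fold changes (edgeR) of Zfp36l2, Zc3h12a, Zc3h12d, Tnf and Ifng against eGFP control over 8 libraries (top row) and with each library left out in turn, with NFAT5 in the left panel and NFAT1 CA-RIT in the right. Zfp36l2, Zc3h12a and Tnf stay above 0 in every row, between 0.71 and 3.44, and the row without eGFP control 6 has the highest values of Zfp36l2 and Zc3h12a. In that row the median of all genes tested was 0.45 in the left panel and 0.49 in the right.

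Between the vectors, the decay factors were not separated. None of the 7 was free of overlap for NFAT1 CA-RIT against NFAT5, beside 6.85% of genes in either direction. edgeR called 0% of genes, 163 (1.13%) had an unadjusted p under 0.05, none of them a decay factor, DESeq2 called 4 genes (0.0184%), and limma voom called 0. The log2 fold change of NFAT1 CA-RIT over NFAT5 was -0.49 ± 0.48 for Zfp36l2, -0.41 ± 0.54 for Zc3h12a and -0.93 ± 0.63 for Tnf (edgeR, adjusted p = 1 for each). The spread within the NFAT1 CA-RIT group was as wide as that difference, with library 4 near the level of the highest NFAT5 libraries for all 3 genes.

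As a list, the 7 decay factors had a median log2 fold change of 0.65 for NFAT5 and 0.20 for NFAT1 CA-RIT against eGFP and of -0.37 for NFAT1 CA-RIT against NFAT5. With 1 library left out, these ranged from 0.28 to 1.18, from 0.07 to 0.55 and from -0.58 to -0.16. The medians of all 14473 genes tested were 0.08, 0.10 and 0.00. All 7 passed the filter on low counts. Another list held 6 genes (Zfp36l3, Zc3h12b, Zc3h12c, N4bp1, Khnyn and Mex3c). Of these, 4 passed, with 2 higher and 2 lower for NFAT5 and 3 higher and 1 lower for NFAT1 CA-RIT against eGFP. None had an unadjusted edgeR p under 0.05.

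No gene of the machinery these factors recruit passed adjustment in edgeR. Of 19 deadenylation genes, 14 were higher and 5 lower for NFAT5 against eGFP (median 0.33), and 12 and 7 for NFAT1 CA-RIT (median 0.32). Leaving out 1 library moved these medians between 0.02 and 0.71 and between 0.10 and 0.64. Only Cnot2, a scaffold subunit of CCR4-NOT, had an unadjusted edgeR p under 0.05, for NFAT5 (0.77 ± 0.32, 0.39 without eGFP control 3). Of 18 genes of decapping and 5′ decay, 12 were higher and 6 lower against eGFP for each vector (medians 0.28 and 0.23), none with a p under 0.05. With 1 library left out, these medians ranged from 0.14 to 0.85 and from 0.11 to 0.98.

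Of 16 exosome and 3′ decay genes, 4 were higher and 12 lower for NFAT5 (median -0.37), and 5 and 11 for NFAT1 CA-RIT (median -0.45), and without eGFP control 3 the medians turned to 0.05 and 0.08. Dis3, the exosome's catalytic subunit, had 30.6 ± 0.726 CPM in the 3 NFAT5 libraries (SD), against 15.2 ± 5.22 CPM in the 2 eGFP libraries (SD), a log2 fold change of 0.91 ± 0.33. Exosc4, a core subunit, and Wdr61, of the Ski complex, had -0.87 ± 0.36 and -0.91 ± 0.39 for NFAT5, and Exosc4 -0.84 ± 0.36 for NFAT1 CA-RIT. Without eGFP control 3 these became -0.04, 0.01 and -0.01, so they rested on that library.

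Of 11 other proteins that bind AU-rich elements, 11 were higher for NFAT5 (median 0.46), and 9 were higher and 2 lower for NFAT1 CA-RIT (median 0.43). With 1 library left out, these medians ranged from 0.22 to 0.68 and from 0.12 to 0.62. Hnrnpd, which encodes the decay-promoting AUF1, had 188 ± 9.02 CPM in the 3 NFAT5 libraries (SD), against 108 ± 5.44 CPM in the 2 eGFP libraries (SD), and its log2 fold change of 0.69 ± 0.23 was 0.72 and 0.68 without either eGFP library. It was the single gene of this list with an unadjusted edgeR p under 0.05. Of 19 upstream regulators and partners, among them Malt1, Mapk14 and Mapkapk2, 12 were higher and 7 lower for NFAT5 (median 0.10) and 13 and 6 for NFAT1 CA-RIT (median 0.12), none with a p under 0.05. Leaving out 1 library moved the medians of this list between -0.02 and 0.52 and between -0.11 and 0.46.

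Messages known as targets of these factors lay on both sides of no change. Of 39 listed, 31 were tested, with 12 higher and 19 lower for NFAT5 (median -0.26) and 13 and 18 for NFAT1 CA-RIT (median -0.03), and without eGFP control 3 the medians turned to 0.04 and 0.05. Unadjusted edgeR p-values were under 0.05 for 3 higher and 9 lower with NFAT5 and 2 higher and 4 lower with NFAT1 CA-RIT. None of these passed adjustment. Over all 14473 genes tested, 471 were higher and 580 lower at that p with NFAT5, and 474 and 458 with NFAT1 CA-RIT. DESeq2 called Ccl3, Ccl4 and Csf2 lower with NFAT5 (adjusted p = 0.00292, 0.000704 and 0.0188), and with NFAT1 CA-RIT it called Ccl3 and Ccl4 lower (0.0461 and 0.0126) and Lif higher (0.0366).

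Notch1, a receptor of T cell fate decisions, had 57.5 ± 26.1 CPM with NFAT5 and 53.2 ± 18.5 CPM with NFAT1 CA-RIT (SD, n = 3 each), against 17.9 ± 13.3 CPM with eGFP (SD, n = 2). Its log2 fold changes were 1.60 ± 0.58 and 1.48 ± 0.57, and 1.04 and 0.92 without eGFP control 3. Tnfaip3, which encodes the NF-κB inhibitor A20, had 394 ± 100.0 CPM with NFAT5, against 168 ± 5.09 CPM with eGFP, a log2 fold change of 1.11 ± 0.41. Il10, an anti-inflammatory cytokine, had 9.44 ± 5.03 CPM with NFAT5, against 33.7 ± 5.54 CPM with eGFP, a log2 fold change of -1.96 ± 0.57. Ccl4 and Ccl3, the MIP-1 chemokines, had log2 fold changes of -2.94 ± 0.54 and -3.16 ± 0.65 for NFAT5, and -1.40 and -1.75 without eGFP control 3. For NFAT1 CA-RIT they were -2.44 ± 0.53 and -2.47 ± 0.64, and -0.90 and -1.06 without that library.

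Lif, a cytokine of the IL-6 family, had 0 reads in both eGFP libraries. It stood at 0.736 ± 0.654 CPM with NFAT5 and 1.92 ± 0.867 CPM with NFAT1 CA-RIT (SD, n = 3 each), at least 15.0-fold and 39.2-fold higher than 3 reads over the eGFP group would give (0.0490 CPM). Ier3, an immediate early gene, had a log2 fold change of -1.28 ± 0.49 for NFAT1 CA-RIT against eGFP, and -0.37 without eGFP control 3. Il2ra, the high-affinity interleukin 2 receptor chain and a Regnase-1 target, had 60.9 ± 22.0 CPM with NFAT1 CA-RIT and 25.5 ± 4.53 CPM with NFAT5 (SD, n = 3 each), a log2 fold change of 1.24 ± 0.41 (edgeR, adjusted p = 1). Cdk6, a G1 kinase, differed by 0.63 ± 0.26 between the same groups.

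The genes most like each member were found as those with the smallest root mean square difference of log2(CPM + 1), centred on each gene's mean, over 8 libraries, among the 9298 genes that averaged 5 CPM or more. Zfp36l2 and Zc3h12a were each other's second nearest gene, at 0.351, after Nefh, at 0.266 from Zfp36l2 and 0.231 from Zc3h12a. The other nearest genes were Ass1 (0.362) for Zfp36l2 and AC137853.2 (0.358) for Zc3h12a. Tnf lay nearest to Dusp2 (0.431), Ass1 (0.554) and Cyp11a1 (0.571), with no decay factor among the 3.

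For the members whose levels overlapped between groups, the nearest genes were Nck2 (0.127), Grap2 (0.137) and Ier5 (0.138) for Zfp36, and Il3ra (0.144), Map2k4 (0.147) and Nsrp1 (0.149) for Zfp36l1. They were Wdfy1 (0.155), Ppt2 (0.178) and Jmjd4 (0.179) for Zc3h12d, and Vars2 (0.201), Sema4f (0.207) and Usp45 (0.236) for Rc3h1. Rc3h2 lay nearest to Farp1 (0.169), Mroh1 (0.220) and Scd2 (0.248), and Ifng to Nkg7 (0.0841), Mien1 (0.0954) and Hsbp1 (0.1001). These distances share library depth and vector group over few libraries and are given as descriptions.

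Promoter windows of 300 bases (250 before to 50 after the start, RefSeq, GRCm38.p6) were searched on both strands for GGAAA, the core bound by NFAT proteins, for TGGAAA, the form preferred by NFAT5, which contains the first, for TGANTCA and for the CArG box. TGANTCA, with any base at N, is a loose form that includes the AP-1 site TGACTCA. Of 32851 such windows, 61.3% held GGAAA, 21.4% TGGAAA, 7.81% TGANTCA and 1.63% a CArG box. These windows covered 6 of the 7 decay factors, without Zfp36l2. The windows of Zc3h12a and Zc3h12d held none of the 4, that of Zfp36 held 1 CArG box alone, Zfp36l1 held 4 GGAAA and 1 TGANTCA, Rc3h1 1 GGAAA and 1 TGANTCA, and Rc3h2 1 GGAAA. The TGANTCA match read TGATTCA in Zfp36l1 and TGACTCA in Rc3h1. Tnf held 3 GGAAA, 1 of them within TGGAAA, Ifng held 1, and Il2 held 2, 1 of them within TGGAAA. The windows of Zc3h12a and Tnf are shown because both genes were higher in every NFAT library yet differ in these letters, with GGAAA or its complement TTTCC in capitals, of which the Zc3h12a window has none.
Zc3h12a, chr4:125127832-125128131, minus strand: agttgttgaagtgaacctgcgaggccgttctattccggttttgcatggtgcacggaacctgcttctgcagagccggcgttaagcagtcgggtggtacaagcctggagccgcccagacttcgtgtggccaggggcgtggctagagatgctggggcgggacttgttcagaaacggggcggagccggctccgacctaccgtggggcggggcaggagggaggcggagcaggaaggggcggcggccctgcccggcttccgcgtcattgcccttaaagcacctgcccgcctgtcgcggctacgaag
Tnf, chr17:35201958-35202257, minus strand: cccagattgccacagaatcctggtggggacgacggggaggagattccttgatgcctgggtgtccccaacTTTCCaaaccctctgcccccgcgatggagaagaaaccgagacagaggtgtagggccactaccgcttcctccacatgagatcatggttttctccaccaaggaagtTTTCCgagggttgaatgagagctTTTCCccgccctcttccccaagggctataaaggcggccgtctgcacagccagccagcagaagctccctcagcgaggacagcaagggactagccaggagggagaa
A match is a description, and the lack of one says only that these letters are not in this window.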

How the data were processed

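RNA from sorted tumour-infiltrating CD8 T cells was sequenced in 10 libraries. The deposited estimated counts (reads per transcript) and TPM values were made by the authors with Salmon 0.14.1, and the builds GRCm38.p6 and mm10 are named, per the submitters' processing notes. The sources used here do not give command options or strandedness. Effective transcript lengths, per the file headers, were used for the length offset alone.

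Estimated counts were summed over the transcripts of each GENCODE M21 gene and rounded. Of 140919 transcripts, 953 had no match and were left out, at most 0.292% of a library's reads. The main test was edgeR 4.0.16, run in R 4.3.3 (quasi-likelihood, TMM scaling, default low-count filter with a minimum of 10 reads, 3 groups in 1 fit, Benjamini-Hochberg adjustment at 0.05), with DESeq2 1.42.0 and limma 3.58.1 voom as alternatives, and the scripts were tested on simulated data. With 8 libraries, the common biological coefficient of variation came to 0.725. The edgeR test gives no standard error, so those of its fold changes were derived as the absolute log2 fold change over the square root of the F statistic. CPM, scaled to reads on all summed genes, carry no TMM factor. Where a fit left 1 library in an arm, that library was assumed to vary like the other groups.

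Samples were grouped by the treatment label. The members, the 16 lists, the use of 8 libraries and the rule for named genes were chosen with earlier results of these data known. The rule names the members and Tnf, Ifng and Il2, up to 3 genes per list, direction and comparison with the smallest unadjusted p under 0.05, and the 3 genes most like each member; cell markers were named only beside the results they touch. Alternatives were all 10 libraries, only the compared groups, other scalings and filters, length offsets and each library left out. DESeq2 over 10 libraries and DESeq2 with each library left out were added after seeing the data.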

Additional observations from a re-analysis of the deposited data

Results flagged for a closer look

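In NFAT1 CA-RIT 10, the library with almost no CD8 T cell reads, Zc3h12d stood at 0 CPM, and on the log2(CPM + 1) scale its gap to the other 3 NFAT1 CA-RIT libraries was large for a group of 4 (gap over range 0.840, above the critical value of 0.829). On the CPM scale this gap over range was 0.563, below that value, and Zc3h12a in NFAT1 CA-RIT 4, at 21.6 CPM, was instead beyond it (0.842, against 0.752 on the log2 scale). On each scale 1 of the 7 members was beyond the value, and chance gives about 1 in 20 groups. The same library, which the comparisons did not use, still held Zfp36 at 192 CPM, Zfp36l2 at 109 CPM, Zc3h12a at 6.74 CPM and Rc3h2 at 5.26 CPM, each above both deep eGFP libraries, while Rc3h1, Tnf and Ifng stood at 0 CPM in it. eGFP control 7, also not used, held Zfp36l1 at 3359 CPM, from 172 reads.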

How the results depend on the processing

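Zfp36l2, Zc3h12a and Tnf kept their sign against eGFP under every alternative run, and calls appeared with DESeq2 for all 3 and, for Zfp36l2 and Zc3h12a, in edgeR without eGFP control 6. Numbers of genes called were 131, 116 and 4 with DESeq2 (NFAT5 against eGFP, NFAT1 CA-RIT against eGFP, NFAT1 CA-RIT against NFAT5), 23, 33 and 4 with DESeq2 over 10 libraries, and 0 under every other setting that kept the 8 libraries or used all 10 in edgeR or limma. With a library left out they ranged from 0 to 3294, 0 to 3410 and 0 to 0 in edgeR, and from 38 to 5292, 23 to 5352 and 2 to 37 in DESeq2. Signs turned for Zfp36, Zfp36l1, Rc3h1, Rc3h2, Zc3h12d and Ifng in the comparisons given next, none of them called by edgeR over the 8 libraries, and the cause was not tested. Over 10 libraries (edgeR, then DESeq2) Zfp36l1 had -7.67 and -7.86 for NFAT5 and -7.65 and -7.70 for NFAT1 CA-RIT against eGFP, Rc3h1 -0.34 and -0.62 for NFAT1 CA-RIT, and Ifng -0.39 and -0.31 between the vectors; Rc3h2 had -0.18 (DESeq2) for NFAT5 and Zc3h12d -0.0425 (edgeR) between the vectors. Against eGFP, upper-quartile scaling gave Zfp36 -0.0432 and Rc3h1 -0.0290 for NFAT1 CA-RIT, the stricter filter Zfp36 -0.0022, and the length offset Zfp36l1 -0.0312 for NFAT5 and Rc3h1 -0.18 for NFAT1 CA-RIT; limma voom gave Ifng -0.0786 between the vectors. Leaving out 1 library, values over edgeR and DESeq2 ranged for NFAT5 against eGFP from -0.26 to 0.54 for Zfp36l1 and -0.0866 to 9.63 for Rc3h2 (the upper value, without eGFP control 6, is set against 0 reads and is no measured fold), for NFAT1 CA-RIT against eGFP from -0.19 to 0.20 for Zfp36, -0.15 to 0.64 for Zfp36l1 and -0.36 to 0.55 for Rc3h1, and between the vectors from -0.0423 to 0.23 for Zfp36l1, -0.23 to 0.81 for Rc3h2 and -0.14 to 0.16 for Ifng. No paired analysis was possible because the groups share no replicate numbers. The 51 and 85 reads of Zc3h12a in the eGFP libraries and the number of eGFP libraries limit the precision.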
